A study of Arabidopsis thaliana with 9 samples.

Results

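The genes of chlorophyll breakdown were examined in shoots of wild type Arabidopsis thaliana (accession Col-0) under 3 iron conditions. The 10 genes were taken by locus name, as the enzymes of the pathway and their relatives, with earlier results of these data known. All 10 were found, with 15 of the 55442 transcripts that each of the 3 tables lists. Every group was first raised for 14 days with iron in the medium and was then moved to new medium for 3 days and again for 24 h. In +Fe both moves were to medium with iron, in -Fe both were to medium lacking it, and in Fe resupply iron was absent for the 3 days and present for the last 24 h. The labels give 3 samples per condition, 9 in all, and every group is the same genotype, so iron supply is the only labelled difference.

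Chlorophyll breakdown takes the pigment apart in a fixed order. Chlorophyll b is first reduced back to chlorophyll a, the magnesium is then removed, the phytol tail is cut off, and the ring is opened to give colourless products that leave the chloroplast. The pathway is best known from leaf senescence, where its loss keeps leaves green, and it also removes pigment from photosystems that are being dismantled. Several of its enzymes carry iron themselves: pheophorbide a oxygenase is a Rieske-type iron protein, and the reductase HCAR holds iron-sulfur clusters. Loss of green colour in young leaves is a well known sign of iron shortage.

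The tables hold 1 average level per transcript for each pair of conditions, as log2 CPM (counts scaled to the size of the library), and no value per sample. The 3 pair averages of a transcript were solved for the 3 condition means, after the tables had been put on a common scale. The condition means below are given in CPM, and differences as log2 ratios of these means. No spread between replicates can be given, no test was run, and no difference below is shown to be larger than replicate error. The single-count levels show 12 libraries in each table, which is 6 per condition and not the 3 that the labels give, and 23054 to 23322 transcripts were at 0 in every library of a table. The mean effective library size was 1124869 to 1142468 counts, if the authors' tool used its usual prior count of 2, so 1 CPM stood for about 1.12 to 1.14 counts per library. Whether these are reads or values already scaled by length or depth is not given in the sources used here. Conditions are therefore compared within a gene. The marker sums, transcript shares and 10 CPM minimum used below set unlike genes or transcripts side by side, with no correction for length. A lower level in a shoot sample cannot be told apart from fewer cells that use the gene.

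The tissue label was checked against marker genes. The shoot markers RBCS1A, LHCB1.1, CAB3 and RCA summed to between 34623 and 37776 CPM over the 3 conditions. The root markers CASP1, COBL9, EXPA7 and IRT1 summed to 1.18 CPM in Fe resupply, 1.64 CPM in +Fe and 4.30 CPM in -Fe, and CASP1 and EXPA7 were at 0 throughout. IRT1, an iron transporter of roots, was at 1.22 in +Fe, 3.84 in -Fe and 1.18 CPM after resupply. COBL9 was at 0.423, 0.461 and 0 CPM in the same order, so the higher sum in -Fe was that of IRT1. LHCB1.1 and CAB3 are near-identical copies, so their reads may be shared between them.

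The mean level of NYC1 was far lower in -Fe than in either other condition, and no other member showed a difference of that size. NYC1 (AT4G13250, chromosome 4, 7684156 to 7687006 of TAIR10.1, minus strand) encodes a chlorophyll b reductase, the enzyme that starts the return of chlorophyll b to chlorophyll a. Its mean level, summed over its 2 transcripts, was 82.1 in +Fe, 18.0 in -Fe and 83.3 CPM after resupply. The -Fe mean was 4.56 times below the +Fe mean (log2 ratio -2.19) and 4.63 times below the Fe resupply mean (log2 ratio -2.21), while Fe resupply and +Fe differed by 0.02 on the log2 scale. The same pattern is visible in the authors' averages before any solving. For AT4G13250.1 they were 5.66 log2 CPM over -Fe and +Fe, 5.66 log2 CPM over -Fe and Fe resupply, and 6.34 log2 CPM over Fe resupply and +Fe, so the one average without -Fe libraries was the high one.

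Among the 10782 genes whose summed level reached 10 CPM in all 3 tables, 8 had a lower log2 ratio of -Fe to +Fe than NYC1, and 8 had a lower one of -Fe to Fe resupply. At the level of transcripts, 2.85% of the 11284 compared were lower in -Fe than in +Fe by a log2 ratio of at least 1, and 1 of the 8 member transcripts at or over 10 CPM was, AT4G13250.1 at -2.25. The other 7 of the 15 member transcripts were under that minimum in at least 1 table and are described without such a count. Against Fe resupply, 3.17% of 11280 transcripts were lower in -Fe by this measure, and again AT4G13250.1 alone of the members was, at -2.28. The 2 comparisons share the -Fe libraries and are not separate evidence. In the other direction, 2.3% of transcripts were higher in -Fe than in +Fe by at least 1 and no member transcript was.

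**Figure D1:**
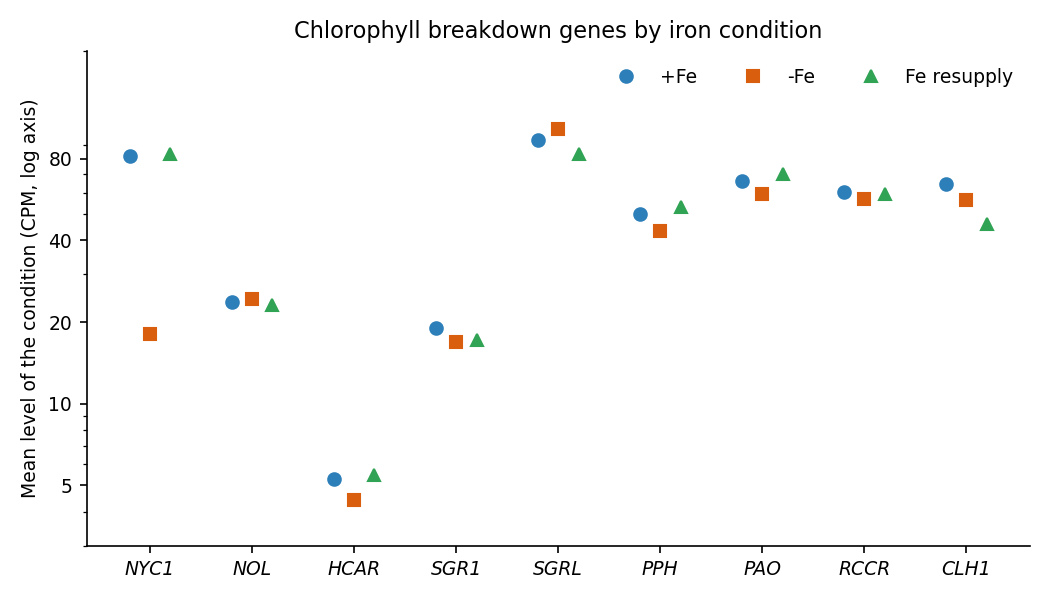
Mean level of 9 member genes (CPM, log axis) in +Fe (circles), -Fe (squares) and Fe resupply (triangles), each point 1 condition mean solved from the pair averages, with no error available. NYC1 stands at 18.0 CPM in -Fe against 82.1 and 83.3 CPM in the other conditions, and the symbols of the other genes lie close together; SGR2, under 1 CPM, is left out.

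Both NYC1 transcripts were lower in -Fe. AT4G13250.1 carried 96.4% of the level of the gene in +Fe, 92.6% in -Fe and 97.2% in Fe resupply. AT4G13250.2 was at 2.91 in +Fe, 1.34 in -Fe and 2.34 CPM after resupply, which is close to the level of single counts. The transcripts use acceptor sites that lie 6 bases apart at the start of an exon, so that AT4G13250.2 encodes 494 residues against 496 for AT4G13250.1. The 30 bases around that acceptor are shown because they are the coding difference between the transcripts, with the bases that AT4G13250.1 alone keeps in capitals (chr4:7685898-7685927, TAIR10.1, minus strand, printed 5′ to 3′).
NYC1 acceptor: gctgtgttttagCACTAGgggactagggaa

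NOL (AT5G04900, chromosome 5, 1434774 to 1437495, plus strand) encodes the second chlorophyll b reductase protein of the plant, a relative of NYC1. Its mean level was 23.8 in +Fe, 24.3 in -Fe and 23.1 CPM after resupply, with log2 ratios of 0.03 for -Fe to +Fe and -0.04 for Fe resupply to +Fe. The 3 NOL means thus lay close together. HCAR (AT1G04620, chromosome 1, 1282163 to 1286619, minus strand) encodes the iron-sulfur reductase that completes the return to chlorophyll a. It was at 5.28 in +Fe, 4.41 in -Fe and 5.46 CPM after resupply, below the 10 CPM minimum, and its log2 ratio of -Fe to +Fe was -0.26. The opposite step of the chlorophyll cycle, the oxygenation of chlorophyll a to chlorophyll b by CAO (AT1G44446), was represented by 345.5 in +Fe, 362.2 in -Fe and 386.7 CPM after resupply, a log2 ratio of 0.07 for -Fe to +Fe.

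The magnesium-removing proteins of the STAY-GREEN family did not share the pattern of NYC1. SGR1 (AT4G22920, chromosome 4, 12016420 to 12018643, minus strand), the magnesium dechelatase of senescing leaves, summed to 19.1 in +Fe, 16.8 in -Fe and 17.2 CPM after resupply. Its relative SGRL (AT1G44000, chromosome 1, 16708004 to 16709713, minus strand), known from green leaves, was at 93.6 in +Fe, 103.0 in -Fe and 83.2 CPM after resupply, and had the highest log2 ratio of -Fe to +Fe of the members over the minimum, 0.14. SGR2 (AT4G11910, chromosome 4, 7156150 to 7158047, plus strand), the close relative of SGR1, was barely detected. Its levels of 0.503 in +Fe, 0.618 in -Fe and 0 CPM after resupply are those of transcripts with less than 1 count per library, and no ratio is drawn from them.

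The 2 SGR1 transcripts differed in opposite directions while their sum stayed near one level. AT4G22920.1 was at 6.45 in +Fe, 9.52 in -Fe and 5.63 CPM after resupply. AT4G22920.2 was at 12.6 in +Fe, 7.32 in -Fe and 11.5 CPM after resupply. The share of AT4G22920.1 was therefore 33.8% in +Fe, 56.5% in -Fe and 32.8% in Fe resupply. The annotation gives both a coding sequence of 268 residues. AT4G22920.2 has 5 exons against 4 and different ends, and the coding sequences of the 2 transcripts were not compared base by base. Neither reached the 10 CPM minimum in all tables.

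PPH (AT5G13800, chromosome 5, 4451733 to 4454813, minus strand) encodes pheophytinase, which cuts the phytol tail from pheophytin. Its sum over 4 transcripts was 50.0 in +Fe, 43.4 in -Fe and 53.3 CPM after resupply, a log2 ratio of -0.20 for -Fe to +Fe. The main transcript AT5G13800.1 was at 36.2 in +Fe, 22.3 in -Fe and 42.0 CPM after resupply. AT5G13800.4 was the reverse, at 12.5 in +Fe, 21.2 in -Fe and 10.6 CPM after resupply. The share of AT5G13800.4 in the level of the gene was 24.9% in +Fe, 48.7% in -Fe and 19.8% in Fe resupply.

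AT5G13800.4 keeps an intron of 82 bases (4452315 to 4452396 of chromosome 5, TAIR10.1) that is removed from AT5G13800.1. The reading frame ends at a stop codon after the first 3 bases of that intron, so that the annotated protein has 402 residues in place of 484. The 30 bases across the start of the intron are shown because they separate the transcripts (chr5:4452379-4452408, TAIR10.1, minus strand, printed 5′ to 3′), with 12 bases of the exon first and the stop codon in capitals.
PPH intron start: gaagtccctgaggtaTAAtgaactagtcaa

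AT5G13800.4 was higher in -Fe than in Fe resupply by a log2 ratio of 1.00, just inside the threshold (it was 0.89 with the floor kept), and was the 1 member transcript higher there, against 2.59% of the 11280 transcripts compared. It was at 0.76 for -Fe to +Fe, under the threshold. AT5G13800.2 was at 1.35 CPM in +Fe and near 0 in the other conditions, and AT5G13800.3 at 0.749 CPM in Fe resupply and near 0 elsewhere. Shifts between transcripts of a gene were common in these tables. The comparison took the 5379 genes with more than 1 transcript whose summed level reached 10 CPM in all 3 tables. Of these, 21.2% had a transcript whose share differed by at least 20 percentage points between -Fe and +Fe. Of the 3 member genes with more than 1 transcript, SGR1 (22.7 points) and PPH (23.8 points) were among them. For -Fe and Fe resupply the share of genes was 21.8% and again SGR1 (23.7 points) and PPH (28.9 points) were among them. For Fe resupply and +Fe it was 22.6%, and no member was, the largest difference being 6.42 points for PPH. The measure of 20 points was chosen after the values were seen. The division of reads between transcripts of a gene is the estimate of the authors' assembly, and the part of that step in these shifts was not tested.

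**Figure D2:**
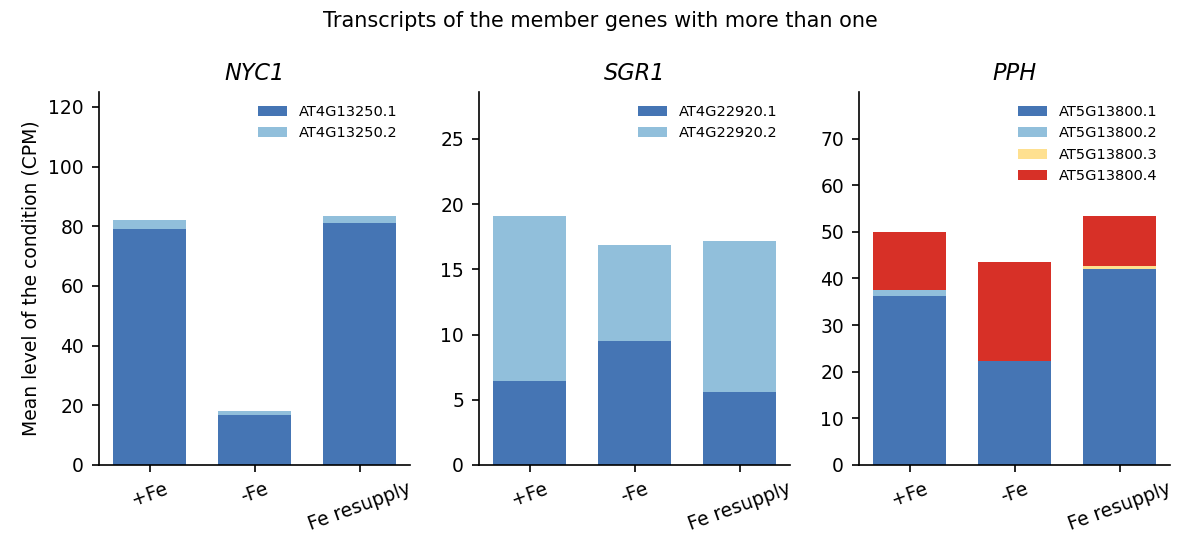
Stacked mean levels (CPM) of the transcripts of NYC1, SGR1 and PPH in +Fe, -Fe and Fe resupply, each bar 1 condition and each colour 1 transcript, with no error available. The NYC1 bar is short in -Fe (18.0 CPM), whereas the SGR1 bars (16.8 to 19.1 CPM) and the PPH bars (43.4 CPM in -Fe, 50.0 and 53.3 CPM in the others) differ less in height and more in make-up, AT5G13800.4 taking 48.7% of PPH in -Fe against 24.9% in +Fe.

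The enzymes that open the ring and reduce the product stayed close to their +Fe levels. PAO (AT3G44880, chromosome 3, 16383595 to 16386344, plus strand), the iron-dependent oxygenase that opens the ring of pheophorbide a, was at 66.4 in +Fe, 59.5 in -Fe and 70.1 CPM after resupply, with a log2 ratio of -0.16 for -Fe to +Fe. RCCR, also named ACD2 (AT4G37000, chromosome 4, 17442612 to 17444295, plus strand), reduces the red product of PAO and was at 60.2 in +Fe, 57.1 in -Fe and 59.3 CPM after resupply. CLH1 (AT1G19670, chromosome 1, 6803486 to 6805092, minus strand) encodes a chlorophyllase, an enzyme that removes phytol from chlorophyll directly and is known as a gene induced by jasmonate and coronatine. CLH1 was lowest in Fe resupply, at 45.8 CPM against 64.8 CPM in +Fe and 56.2 CPM in -Fe. Its log2 ratio of Fe resupply to +Fe was -0.50, and 388 of the 10782 genes had a lower one.

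Leaving NYC1 aside, the 7 members over the minimum had log2 ratios of -Fe to +Fe from -0.21 for CLH1 to 0.14 for SGRL, with a median of -0.16 and 5 of 7 below 0. Over all 10782 genes the median was -0.01, 51.0% were below 0, and the 5 and 95 percentiles were -0.53 and 0.48. All 7 lay within that range. With NYC1 the median of the 8 was -0.17. For -Fe to Fe resupply the 7 ran from -0.30 for PPH to 0.31 for SGRL, with a median of -0.03 against 0.00 over all genes. For Fe resupply to +Fe the 7 ran from -0.50 for CLH1 to 0.09 for PPH with a median of -0.04, and CLH1 alone was outside the 5 and 95 percentiles of all genes, -0.44 and 0.41. No member transcript differed by a log2 ratio of 1 or more in that comparison, in which 1.99% of transcripts were higher and 2.06% lower in Fe resupply.

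**Figure D3:**
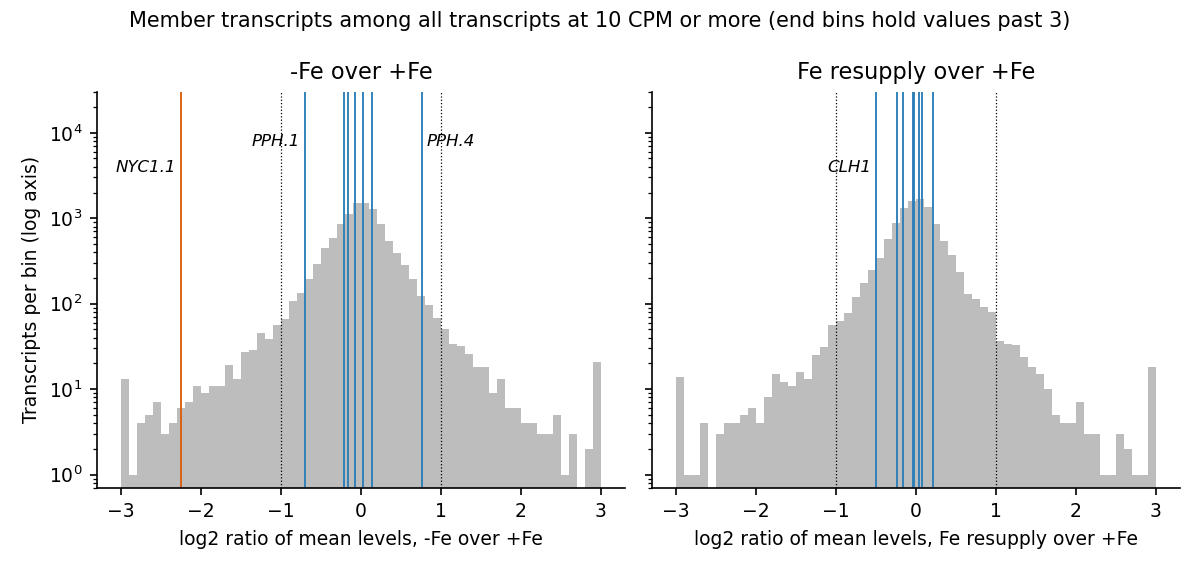
Number of transcripts (log axis) by log2 ratio of mean levels, for -Fe over +Fe at left and Fe resupply over +Fe at right, over all transcripts at 10 CPM or more, with the 8 member transcripts as vertical lines, the threshold of 1 dotted and the end bins holding values past 3. AT4G13250.1 of NYC1 lies at -2.25 at left and 0.03 at right, and the other members lie between the dotted lines in both.

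A list of 9 other genes of chlorophyll turnover was read beside the members. Of its 8 genes over the minimum none differed by a log2 ratio of 1 in any of the 3 comparisons, the values for -Fe to +Fe running from -0.31 for CYP89A9, which modifies the colourless products, to 0.11 for VTE6, a phytol phosphate kinase. For -Fe to Fe resupply all 8 were below 0, from -0.394 to -0.095, where 49.96% of all genes were below 0. For Fe resupply to +Fe they ran from -0.131 to 0.284. TIC55 and PTC52, iron proteins of the same oxygenase family as PAO, had log2 ratios of -0.23 and -0.21 for -Fe to +Fe. CAO, the oxygenase described above and also on this list, was at 0.07. CLD1, a chlorophyll dephytylase, was at 0.07, VTE5, a phytol kinase, at -0.13 and MES16, a methylesterase acting on breakdown products, at -0.14 in the same comparison. CLH2, a relative of CLH1, was below the minimum at 4.90 in +Fe, 3.57 in -Fe and 2.29 CPM after resupply. For comparison, 0.872% of all genes were higher and 1.02% lower in -Fe than in +Fe by at least 1.

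Of 12 transcription factor genes known to act on these enzymes in senescing leaves, 7 were over the minimum, and their log2 ratios of -Fe to +Fe ran from -0.37 for ABF4 to 0.04 for MYC2. ABF4, a factor of abscisic acid signalling, was at 37.5 in +Fe, 29.0 in -Fe and 49.9 CPM after resupply. MYC2, a factor of jasmonate signalling, was at 58.6 in +Fe, 60.1 in -Fe and 25.02 CPM after resupply, a log2 ratio of -1.23 for Fe resupply to +Fe, the comparison in which 0.306% of genes were lower by at least 1. Its log2 ratio of -Fe to Fe resupply was 1.27. MYC2 was thus lowest in Fe resupply. CLH1, NOL, SGRL, SAG29 and WRKY53 among others also had their lowest mean there, NOL with a log2 ratio to +Fe of only -0.04. How many of all genes were lowest there was not counted, and a link between any of these genes was not tested. Of the other 6 factors over the minimum, none differed by 1 or more in any comparison. For -Fe to +Fe the ethylene factor EIN3 was at -0.10, the abscisic acid factors ABF2 and ABF3 at -0.16 and 0.00, and the phytochrome-interacting factors PIF4 and PIF5 at -0.19 and -0.05. ORE1, the best known senescence regulator of the list, was at 1.91 in +Fe, 1.59 in -Fe and 3.03 CPM after resupply, and ABI5 at 2.73, 1.38 and 2.37 CPM in the same order, all below the minimum. The NAC factors ANAC046 (2.46, 3.16 and 2.39 CPM in that order), ANAC019 (3.03, 2.59 and 2.47 CPM) and ANAC016 (0, 0.308 and 0 CPM) were below it too.

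Of the 6 senescence markers, 5 had ratios, and 4 of these (SAG13, SAG29, WRKY53 and SAG21) had their highest mean in -Fe while SEN1 had its lowest there. In the same tally, 0 of 9 chlorophyll turnover genes were highest in -Fe and 5 were lowest there. Of 11 regulators with ratios, 2 were highest in -Fe and 7 lowest. The share over all genes was not counted, so these tallies have no background to be read against. SAG13 and WRKY53 were below the minimum, and SAG29 and WRKY53 had log2 ratios of -Fe to +Fe of only 0.02 and 0.07. SAG12, the protease gene that marks late senescence, was at 0 in all conditions. SEN1, which is also raised by darkness, was at 137.8 in +Fe, 87.9 in -Fe and 218.4 CPM after resupply, a log2 ratio of -1.31 for -Fe to Fe resupply, the comparison in which 1.05% of genes were lower by at least 1. SAG29, a sugar transporter gene, was at 21.4 in +Fe, 21.8 in -Fe and 16.5 CPM after resupply. SAG21, a late embryogenesis abundant protein gene, was at 23.0 in +Fe, 45.8 in -Fe and 33.0 CPM after resupply, a log2 ratio of 0.99 for -Fe to +Fe. SAG13 stood at 3.30 in +Fe, 9.75 in -Fe and 0.449 CPM after resupply, and WRKY53, a transcription factor gene, at 8.24 in +Fe, 8.62 in -Fe and 4.71 CPM after resupply.

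**Figure D4:**
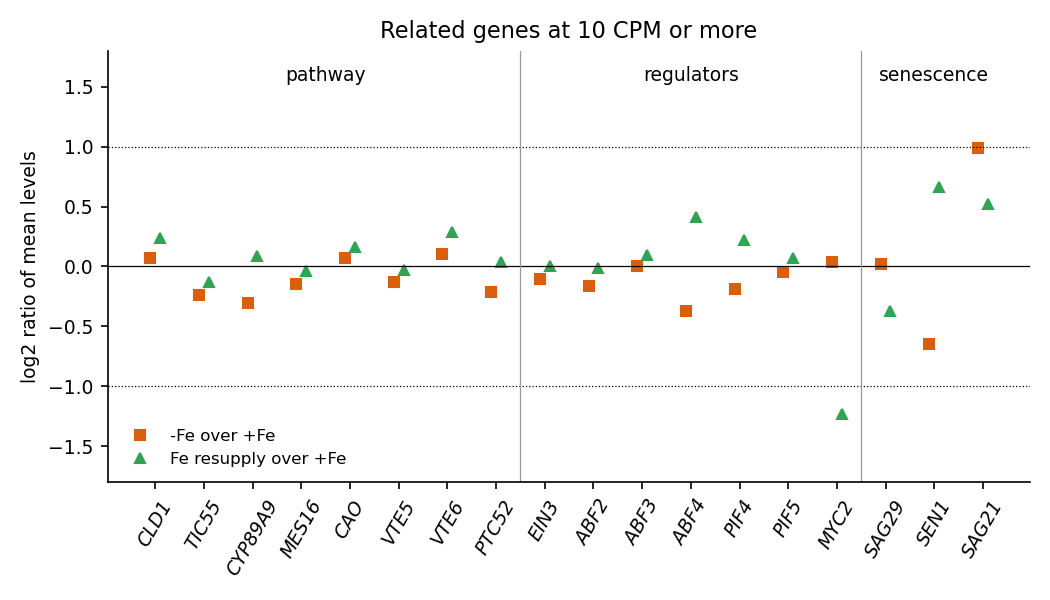
Log2 ratio of mean levels for -Fe over +Fe (squares) and Fe resupply over +Fe (triangles) of the related genes at 10 CPM or more, grouped by list, each symbol 1 gene with no error available and dotted lines at a ratio of 1. No square reaches the dotted lines, with SAG21 at 0.99, and MYC2 at -1.23 is the one triangle outside them.

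The genes whose pattern over the 3 conditions was most like that of NYC1 were sought by distance between pairs of log2 ratios (-Fe to +Fe and Fe resupply to +Fe) among 10781 other genes. The 5 nearest were COR413IM1, a chloroplast envelope protein gene of cold acclimation, CAT1, a catalase gene, ENH1, a rubredoxin-like protein gene, ABCI8, a plastid iron-sulfur assembly gene, and FED A, a ferredoxin gene. Their distances ran from 0.184 for COR413IM1 to 0.222 for FED A. FED A was at 1138 in +Fe, 274.5 in -Fe and 1303 CPM after resupply, and CAT1 at 53.4 in +Fe, 11.1 in -Fe and 61.7 CPM after resupply. With 3 conditions and no replicate values, this likeness describes 2 ratios and has no error.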

How the data were processed

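Reads of paired-end libraries were cleaned by the authors with Trimmomatic 0.36.5, placed on TAIR10 with HISAT2 2.1.0, quantified per transcript with StringTie 1.3.3.2 and compared with edgeR 3.20.7.2, per the submitters' processing notes. The authors deposited 3 tables, 1 for each pair of conditions, and which pair a table covers was taken from the table's own name. The only column used is the authors' average log2 CPM over the libraries of a pair. The other columns hold the authors' fold changes, F statistics, p-values and adjusted p-values, and were not used. What edgeR was given, its normalisation and any filter are not given in the sources used here.

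The lowest value of each table, shared by transcripts at 0, was subtracted on the linear scale (a prior count of 2 was assumed for library sizes only), the tables were scaled so that the median transcript at 10 CPM or more agreed, and the sum of the averages of the tables that hold a condition, less that of the table that does not, gave the condition mean. The number of single-count levels, 12 in each table, gives 6 libraries per condition, so the conditions weigh alike. Of 11288 transcripts at 10 CPM or more, 7 had a solved mean under 0, and ratios with a mean under 0.05 CPM were left out. The step was tested on simulated counts with 6 independent libraries per condition. Whether the authors' data meet those settings was not tested. Transcripts of a gene were summed. A log2 ratio of at least 1, the minimum fold of the study's methods, was used to count transcripts. No test was run, since no replicate values were used. Alternatives were the table scale, the floor, the minimum level, the threshold, the unit counted and the use of 1 transcript per gene. A difference of 20 points in transcript share was a measure added after values were seen.

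The members and gene lists were chosen with earlier results of these data known. All 10 members are named, with the genes of 3 lists (9 of chlorophyll turnover, 12 regulators, 6 senescence markers) and the 5 genes nearest to NYC1. Positions, exons and sequences come from the RefSeq annotation and genome of TAIR10.1. The tables hold no coordinates and none were converted. Python 3.11.15 with numpy 2.4.6 and pandas 2.3.3 was used.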

Additional observations from a re-analysis of the deposited data

How the results depend on the processing

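Of 81 log2 ratios of member genes recomputed under another choice, 77 moved by less than 0.25, a tolerance set in place of a replicate spread. Scaling of the tables or removal of the floor moved none by more than 0.197, and without floor removal NYC1 was at -1.99 for -Fe to +Fe. With only the most abundant transcript of a gene, SGR1 was at -0.79 for -Fe to +Fe and -0.66 for -Fe to Fe resupply, and PPH at -0.70 and -0.92, their other main transcript having a ratio above 0. The AT5G13800.4 ratio of -Fe to Fe resupply was 1.07 without the common scale and 0.89 with the floor kept, one of them past the threshold and one not.

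The number of transcripts past a log2 ratio of 1 was 581 for -Fe to +Fe, 650 for -Fe to Fe resupply and 457 for Fe resupply to +Fe. In the same order it was 1232, 1284 and 1031 at a minimum of 5 CPM, 237, 270 and 168 at 20 CPM, 1634, 1781 and 1359 at a 1.5-fold threshold, and 204, 209 and 46 when genes were counted. No paired analysis was possible because the tables hold no value per sample, and no replicate could be left out for the same reason.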
